A study of Drosophila melanogaster with 8 samples.

Results

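The transcripts described here were highest in the heads of flies kept at 29°C and about level between 18°C and 25°C. They were chosen from the measured values themselves. The values of a library were multiplied so that they added up to 1000000, levels were taken as log2(scaled value + 1), and transcripts whose scaled values averaged 5 or more were kept. A member had a mean level at 25°C within 0.25 of that at 18°C and a mean level at 29°C at least 0.6 above 18°C. In addition, each of its 29°C libraries lay above all libraries of the other temperatures. Of 12577 kept transcripts of 6731 genes, 6447 passed the condition on 25°C, 171 of these were also at least 0.6 higher at 29°C, and 156 transcripts of 123 genes met the whole rule. One transcript per gene, the one with the highest mean among those that met the rule, was followed. In 117 of the 123 genes it was also the transcript with the highest mean of the gene. The same rule with the sign of the 29°C condition turned gave 232 transcripts of 113 genes.

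The series holds polyA+ RNA-seq libraries from whole heads of Canton-S flies, a wild-type strain of Drosophila melanogaster, with no other genotype or treatment than temperature. The paper's methods describe crosses raised at 25°C, whose new adults stayed there or were moved to 18°C or 29°C. Flies of these libraries were entrained at their temperature, and no exposure time is given for them. Light:dark cycles are stated for flies of a companion experiment. There were 3 libraries at 18°C, taken at ZT3, ZT15 and late night, 2 at 25°C, taken at ZT3 and ZT15, and 3 at 29°C, taken at ZT3, ZT15 and late night. ZT counts hours from lights on, and the late night libraries are labelled ZT23 while the methods give an earlier hour. The age and sex of the flies and the number of heads per library are not given in the sources used here. With 1 library per temperature and time point, time points took the place of replicates, and the spread within a temperature includes any change over the day. There is no late night library at 25°C. Mean differences between 25°C and the other temperatures, also those of the rule, therefore include any change between late night and earlier hours. Nothing in the labels says that the libraries came from separate cultures, and p-values therefore measure the spread between these libraries only.

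Heat changes which proteins a cell must fold. Chaperones such as Hsp70 and its J-domain partners hold and refold unfolded chains, Hsp90 matures kinases and receptors with help from co-chaperones, and the ring-shaped CCT chaperonin folds actin and tubulin handed over by prefoldin. Ribosomes are built in the nucleolus, where small nucleolar ribonucleoproteins modify ribosomal RNA and a large set of assembly factors processes it, and Myc is known in flies to raise the transcription of these factors.

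The deposited values are average coverage per base of each transcript, so that levels can be compared between transcripts, but the number of reads behind them is unknown and no counting error can be given. They summed to between 92886 and 108550 per library. Nearly all listed genes have more than 1 exon: of the protein-coding genes in the BDGP6 annotation, 40 of 2144 with a single exon are among the listed genes, against 11004 of 11842 with several. The Hsp70 genes and most small heat shock protein genes have a single exon and were not analysed here. Markers of neurons (6 of 7 listed) and photoreceptors (18 of 19 listed) all had a scaled value of at least 1 in all 8 libraries.

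The 29°C library of ZT15 stood apart. In it 237 transcripts were more than 20-fold above every other library, against 0 in each of the other 7, and 590 transcripts were at 0, against 1435 to 1612 elsewhere. The summed scaled level of 23 midgut markers, 5 of them listed, was 714 there and at most 1.51 elsewhere. Accessory gland markers, 15 of 19 listed, summed to 464 there and to at most 8.53 elsewhere, testis markers (15 of 19 listed) to 116 against at most 70.1, and ovary markers (16 of 21 listed) to 92.6 against at most 22.1. All 15 accessory gland markers listed had a scaled value of at least 1 in that library, against 1 elsewhere. The part of these tissues in the members' values was not tested.

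Of the 123 members, 7 followed this library alone. Jon65Aiv, a serine protease of the midgut, had scaled values of 0.0914, 0.114 and 0.104 at 18°C, 0.254 and 0.349 at 25°C, and 0.740, 355 and 0.653 at 29°C. Its ZT15 library at 29°C thus held nearly all of the signal, and the gene is itself on the midgut marker list. EbpII, an ejaculatory bulb protein and an accessory gland marker here, had values of 0, 0.0734 and 0 at 18°C, 0 and 0.163 at 25°C, and 0.377, 211 and 0.268 at 29°C. Ebp, another protein of the ejaculatory bulb, and Sfp60F, a seminal fluid protein, peaked at 129 and 169.9 in that library and were at or below 0.164 and 0.135 elsewhere. EbpII, Ebp and Sfp60F start within 20 kb of each other on chromosome arm 2R. CG12374 reached 145, CG14292 78.5 and the cuticle protein gene Cpr49Ab 34.8, with highest values of 0.351, 0.579 and 1.58 elsewhere. The remaining 116 members had no such peak, and the description below concerns them unless 123 are named. Without the ZT15 library, 78 of these 116 were still at least 0.6 above 18°C at 29°C, against 1 of the 7, Jon65Aiv.

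**Figure D1:**
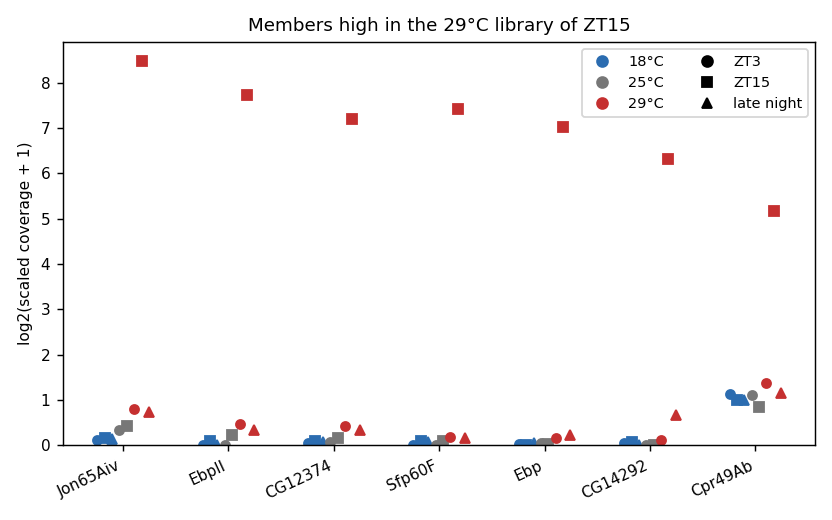
Levels of the 7 members that were high in 1 library, as log2(scaled value + 1), 1 point per library, with colour for temperature and shape for time point. In each gene the 29°C library of ZT15, with scaled values from 34.8 to 355, lies far above the other 7.

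All 123 members met the rule, so that their separation between temperatures is a description and not a result. In the table as a whole, every 29°C library lay above all 18°C and 25°C libraries for 14.2% of the 12577 kept transcripts and below them for 10.8%. A fit with limma called 116 of the 123 higher at 29°C than at 18°C, where 11.3% of 14799 transcripts tested were called higher, and 14 higher at 29°C than at 25°C, where 0.358% were. It called 0 of them different between 25°C and 18°C, where 1.59% were called higher and 6.62% lower. These are contrasts that the rule used, and nothing is read from them.

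The difference given for a gene from here on is its mean level at 29°C minus that at 18°C. On the log2(scaled value + 1) scale the 116 differed by a median of 0.67 between 18°C and 29°C, from 0.60 to 1.08, and the ratios of their mean scaled values ran from 1.51 to 2.20 with a median of 1.67. Between 18°C and 25°C their median difference was 0.14, and 99 of the 116 had the higher mean at 25°C. The kept transcripts as a whole had medians of -0.17 between 18°C and 25°C and -0.11 between 18°C and 29°C. Just inside the threshold lay Lmpt (0.601), CG8545 (0.601) and CCT5 (0.604), and just outside it Phax, spag and mRpS18B, all at 0.598. Among transcripts at least 0.6 higher at 29°C with every 29°C library on top, whatever their 25°C level, 156 of 514 were members and the other 358 were already more than 0.25 above 18°C at 25°C.

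**Figure D2:**
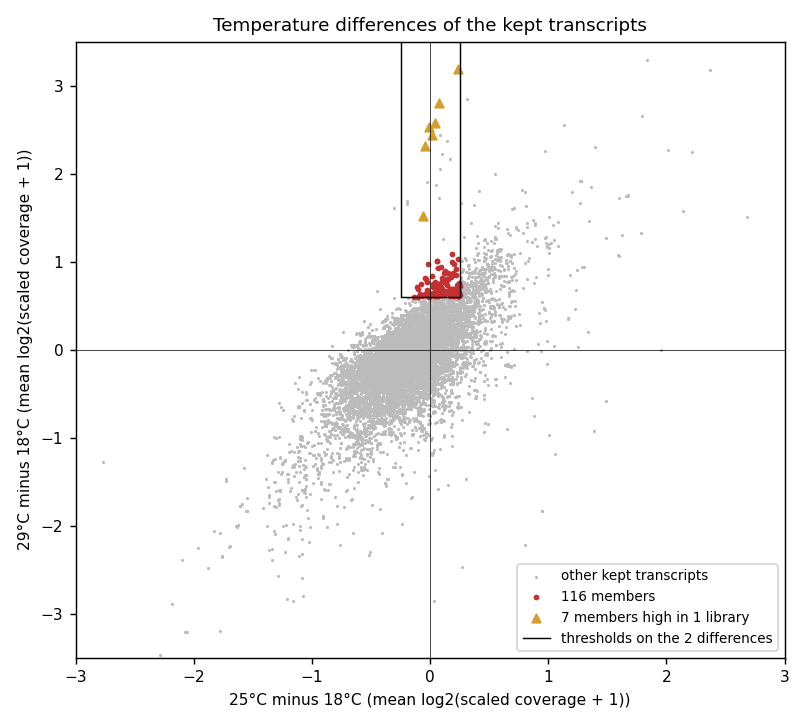
Difference of the mean level at 25°C (horizontal) and at 29°C (vertical) from 18°C, on the log2(scaled value + 1) scale, 1 point per kept transcript, with 8 of 12577 outside the range drawn. The members fill a narrow band at the lower edge of the box that the rule draws, and the 7 triangles above 1.5 are those high in 1 library.

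How level the members were at 25°C depended on the scaling. When the libraries were scaled to the 75th percentile in place of the sum, the medians over all transcripts tested moved from -0.08 to 0.08 for 29°C against 18°C and from -0.16 to 0.06 for 25°C against 18°C. Under that scaling 29 of the 123 members stayed within 0.25 of 18°C at 25°C and the other 94 lay above it, and with quantile normalization 45 stayed within it. The members' median difference between 18°C and 29°C was 0.84 and 0.78 under these scalings, and the limit of 0.6 left no room for a change of sign. With quantile normalization 118 of the 123 were at least 0.6 higher at 29°C, and the smallest difference was 0.18.

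Members of the protein folding machinery were 11 in number, with differences from 0.60 to 1.08 on the log2 scale between 18°C and 29°C. Of the 11, 6 had their highest value in the 29°C library of ZT15. Without that library 6 were at least 0.6 above 18°C. The roles given here and below were assigned to 50 of the 116 from general knowledge after the members were known. DnaJ-1, the Hsp40 that delivers clients to Hsp70, had scaled values of 40.6, 40.2 and 36.9 at 18°C, 38.8 and 51.6 at 25°C, and 91.5, 88.6 and 73.4 at 29°C. Its difference of 1.08 was the largest of the 116, and its lowest 29°C library was well above its highest cooler library, the one at 25°C and ZT15. The small heat shock protein l(2)efl, a relative of alpha-crystallin, had values of 107, 72.9 and 62.6 at 18°C, 77.2 and 88.6 at 25°C, and 162, 143 and 147 at 29°C. It differed by 0.92, and its ZT3 library at 18°C stood above the other 4 cooler libraries. Cdc37, which brings kinases to Hsp90, was tight within each temperature, with values of 15.8, 17.1 and 16.4 at 18°C, 18.0 and 17.4 at 25°C, and 29.4, 27.6 and 29.6 at 29°C. Fkbp59, an FK506-binding prolyl isomerase, had 27.7, 33.5 and 28.5 at 18°C, 31.4 and 30.7 at 25°C, and 46.01, 47.2 and 44.4 at 29°C. Its difference was 0.61, close to the threshold. The last of the group act at the ribosome and in the secretory route. CG10565, whose synonym zuo1 names a yeast J-domain protein that binds ribosomes, differed by 0.63, and CaBP1, a disulfide isomerase of the endoplasmic reticulum, by 0.63.

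The CCT chaperonin is a ring of 8 different subunits, and 4 of them, CCT4, CCT5, CCT6 and CCT8, were members. CCT8 had scaled values of 21.9, 28.1 and 20.9 at 18°C, 23.2 and 22.5 at 25°C, and 41.9, 48.1 and 36.2 at 29°C, a difference of 0.81. CCT6 had 27.9, 30.7 and 24.4 at 18°C, 25.5 and 29.1 at 25°C, and 39.8, 49.9 and 44.1 at 29°C, a difference of 0.67. CCT4 differed by 0.68 and CCT5 by 0.60, with 29°C libraries of 37.7, 45.1 and 31.0 for CCT4 against at most 25.3 elsewhere. All 8 subunits had positive differences, and the subunits outside the members differed in degree. CCT3 rose by 0.59 ± 0.12 (SE) between 18°C and 29°C (limma over all transcripts, adjusted p = 0.00784) and missed the members by the threshold. CCT1 rose by 0.68 ± 0.21 (SE) (limma, adjusted p = 0.0426), with 29°C libraries of 22.2, 30.2 and 17.7 that overlapped the 18°C value of 17.7 at ZT15 by a small margin. CCT7 and CCT2 did not pass, at 0.39 ± 0.15 (SE) and 0.31 ± 0.21 (SE) (limma, adjusted p = 0.0809 and 0.293). That changed when the time point was added to the temperature fit, where all 4 subunits outside the members were called higher. Without the 29°C library of ZT15, 1 of these 4 was called higher. The members CCT4, CCT6 and CCT8 then differed by 0.55, 0.59 and 0.71. The 4 subunits that are not members had a median of 0.49 for 29°C against 18°C, or 0.39 without that library. For 25°C against 18°C their median was -0.13, or 0.10 and 0.09 under the 75th percentile and quantile scalings. It was -0.24 with the time point in the fit, which allows for the missing late night library. The CCT subunits were put together as a list after their values had been seen.

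**Figure D3:**
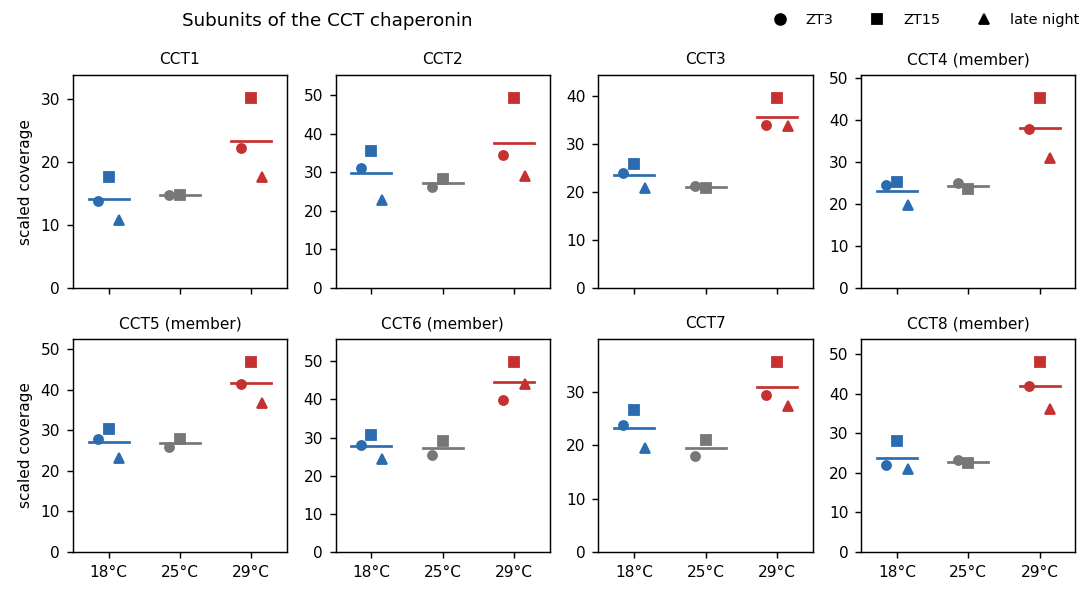
Scaled coverage of the 8 CCT subunits in each library, 1 panel per gene with its own axis from 0, with the temperature on the horizontal axis, shapes for time points and bars for the mean. In each panel the 29°C mean is the highest, and CCT1 and CCT2 are the subunits whose 29°C libraries overlap the cooler ones.

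Of the other genes of the pathway, 24 cytosolic chaperones and heat shock genes were tested, of which 7 were members. Of the 17 that were not, 10 were higher and 0 lower at 29°C than at 18°C, with a median of 0.42. With the members, chosen on this contrast, 17 of the 24 were higher. Over all 8433 genes tested, 14.2% were called higher and 16.2% lower, with a median of -0.02. That balance turned with the scaling, to 2260 higher and 952 lower under the 75th percentile and 1673 and 1246 under quantile normalization, where the 17 chaperones had 12 and 12 higher and 0 lower. Without the 29°C library of ZT15, 8 of the 17 were higher and 0 lower, with a median of 0.39. All 8267 genes tested there had 950 higher and 1605 lower. At 25°C against 18°C the 17 had 0 higher, 1 lower and a median of -0.08, against 2.03% higher and 5.05% lower over all genes. This direction depended on the scaling too. All genes had 467 higher and 106 lower under the 75th percentile and 282 and 121 under quantile normalization. The 17 chaperones had medians of 0.16 and 0.12 there. With sum scaling and the time point in the fit, all genes had 351 higher and 1437 lower. The 17 then had 0 higher and 2 lower, with a median of -0.09. Hsp22 and CG4456 share 1 transcript and have the same values, so that their calls are not separate.

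Among the chaperones outside the members, the constitutive Hsp70 Hsc70-4 had scaled values of 559, 601 and 633 at 18°C, 700.1 and 767 at 25°C, and 1233, 1207 and 1247 at 29°C. It rose by 1.04 ± 0.10 (SE) (limma, adjusted p = 0.000654) and was left out because it was already 0.30 higher at 25°C. Stip1, which couples Hsp70 to Hsp90, had 19.3, 20.8 and 18.2 at 18°C, 22.5 and 25.3 at 25°C, and 51.0, 55.5 and 40.6 at 29°C. Its rise of 1.28 ± 0.13 (SE) was larger than that of any chaperone among the members (limma, adjusted p = 0.000854), and its 25°C level was 0.28 above 18°C. Hsp83, the fly Hsp90, had 197, 211 and 165 at 18°C, 195 and 167 at 25°C, and 302, 315 and 219 at 29°C. It rose by 0.53 ± 0.17 (SE) (limma, adjusted p = 0.0408), under the threshold of 0.6. The heat shock factor Hsf was at 0.11 ± 0.11 (SE) and the co-chaperone p23 at 0.04 ± 0.12 (SE), and neither passed (limma, adjusted p = 0.493 and 0.837).

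Prefoldin, which hands chains to CCT, had 1 member among 7 listed subunits and relatives. This was mgr, prefoldin subunit 3, with scaled values of 19.1, 22.9 and 18.2 at 18°C, 24.1 and 22.5 at 25°C, and 30.5, 32.7 and 33.0 at 29°C. Of the other 6, 4 were higher at 29°C than at 18°C, and Pfdn6, at 0.62 ± 0.09 (SE) (limma, adjusted p = 0.002), rose by nearly as much as mgr (0.66) but was 0.28 above 18°C at 25°C. This list was also drawn up after its values had been seen. The chaperones and stress genes of the endoplasmic reticulum had 0 members on their list of 25 tested genes. Of these, 2 were higher and 3 lower at 29°C, against 14.2% and 16.2% of all genes, with a median of -0.01. Under the 75th percentile scaling 8 were higher and 2 lower, with a median of 0.15, and under quantile normalization 9 and 3, with a median of 0.13. The 29 proteasome genes had 0 members, 25 called lower at 29°C and a median of -0.94, and at 25°C 13 were called lower with a median of -0.87. Under the 75th percentile and quantile scalings 20 and 18 were called lower at 29°C, but 1 under each at 25°C, with medians there of -0.64 and -0.66.

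**Figure D4:**
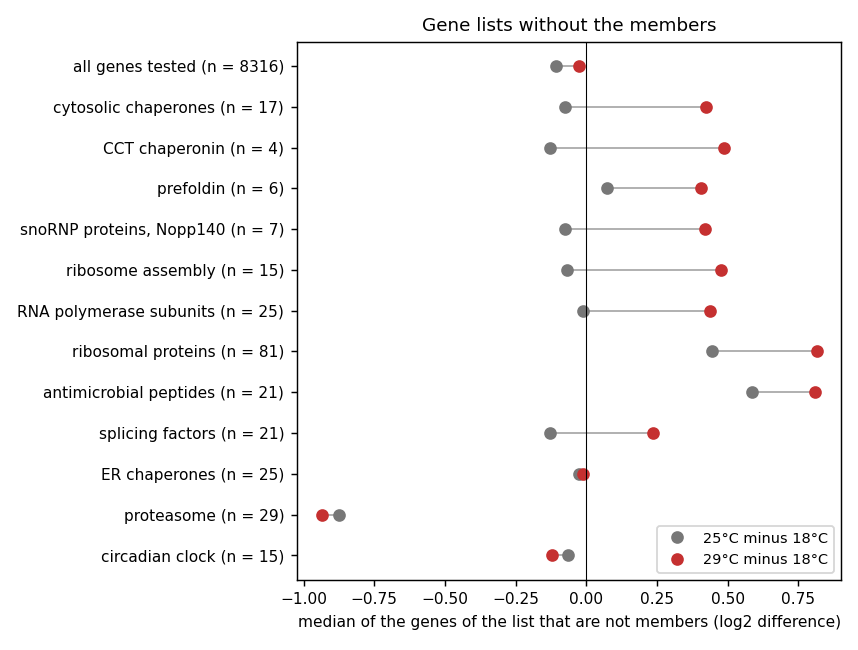
Median log2 difference from 18°C at 25°C (grey) and at 29°C (red) over the tested genes of 12 lists and over all genes, members left out and libraries scaled to their sum, with the number of genes beside each name. The cytosolic chaperone, CCT, prefoldin, snoRNP, ribosome assembly and polymerase lists lie between -0.13 and 0.07 at 25°C (all above 0 under the other scalings). At 29°C they lie between 0.41 and 0.49, and without the library of ZT15 between 0.27 (snoRNP) and 0.39. The list of the endoplasmic reticulum lies at -0.03 and -0.01.

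Ribosome assembly and the nucleolus held 10 members, with differences from 0.60 to 1.03. Ip259, a relative of the yeast large-subunit assembly factor Nsa2, was the most abundant of them, with scaled values of 144, 147 and 173 at 18°C, 192 and 171 at 25°C, and 318, 288 and 342 at 29°C. It differed by 1.03. Its exons overlap those of RpS27A on the same strand, and RpS27A rose by 0.74 ± 0.11 (SE) (limma, adjusted p = 0.00212), so that reads of the pair may be mixed. CG4364, the fly pescadillo, had 42.4, 48.1 and 48.7 at 18°C, 59.3 and 50.9 at 25°C, and 70.7, 76.5 and 92.1 at 29°C. Its difference was 0.76, and its 25°C libraries lay above those of 18°C. The low-abundance factors lay in the same range. Their differences were, for vito, a relative of Nol12, 0.77, CG9107 (synonym Rrp7) 0.71, CG6937 (NIFK) 0.66, l(2)k09848 (WDR74) 0.65, Noc3 0.62 and CG8545 (NOP2) 0.60. Fibrillarin (Fib), the methyltransferase of box C/D particles, had 12.8, 14.8 and 13.1 at 18°C, 13.1 and 14.6 at 25°C, and 18.1, 27.1 and 21.2 at 29°C. Nopp140, a chaperone of these particles, had 9.00, 10.2 and 8.71 at 18°C, 9.61 and 10.4 at 25°C, and 12.4, 19.2 and 14.4 at 29°C. Both were highest in the 29°C library of ZT15, and without it their differences were 0.50 and 0.48, against 0.65 and 0.65 with it. Of the 10 members of this group, 7 had their highest value in that library, and 4 were at least 0.6 above 18°C without it.

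A list of 23 tested ribosome assembly factors, drawn up after the values had been seen, held 8 members. Of the other 15, 7 were higher and 0 lower at 29°C than at 18°C, against 14.2% and 16.2% of all genes. Their median was 0.47, against -0.07 at 25°C, where the 75th percentile and quantile scalings gave 0.11 and 0.08. Under those scalings 12 and 8 of the 15 were higher at 29°C, and without the 29°C library of ZT15 5 were, with a median of 0.33. Non1, a nucleolar GTPase outside the members, rose furthest, by 1.44 ± 0.17 (SE) (limma, adjusted p = 0.000996), and was 0.57 above 18°C at 25°C. Ns1 and pit, nucleolar proteins too, were at 0.03 ± 0.12 (SE) and -0.01 ± 0.16 (SE) and did not pass (limma, adjusted p = 0.864 and 0.982). Among 9 snoRNP proteins, also listed afterwards, Fib and Nopp140 are members. Of the other 7, 2 were higher and 0 lower, or 1 without the library of ZT15, with medians of 0.42 and 0.27. The 75th percentile and quantile scalings gave 5 and 4 higher. Here hoip and Nop60B had 29°C values of 24.5, 49.0 and 26.6 and of 12.7, 29.7 and 15.6. In both genes the ZT15 library was well above the other 29°C libraries, which overlapped those of 18°C.

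Ribosomal proteins, the parts that this machinery assembles, were listed nearly in full. Of 82 cytosolic ribosomal protein genes tested, 77 were higher at 29°C than at 18°C and 0 lower, against 14.2% and 16.2% of all genes. Their median was 0.81. But 29 were higher at 25°C too, against 2.03% of all genes, and the median there was 0.44. Quantile normalization gave 54 higher with a median of 0.42 at 29°C and 13 with a median of 0.27 at 25°C. The 75th percentile gave 80 with 0.99 and 52 with 0.68. RpS21 was the only member among them, with scaled values of 1315, 1075 and 1258 at 18°C, 1519 and 1360.2 at 25°C, and 2192, 1938 and 1914 at 29°C. It met the condition on 25°C by a small margin, at 0.246 against the limit of 0.25. Under quantile normalization 54 ribosomal protein genes were called higher at 29°C with or without RpS21, so that RpS21 itself was not called. Translation factors among the members were eIF2alpha, the subunit that stress kinases phosphorylate, which differed by 0.61, and Lk6, a kinase of the cap-binding protein eIF4E. Lk6 had 198, 225 and 272 at 18°C, 246 and 256 at 25°C, and 397, 403 and 484 at 29°C, and its late night library was the highest at both 18°C and 29°C.

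RNA polymerase subunits Polr1D, shared by polymerases I and III, Polr2H, shared by polymerases I, II and III, and Polr3K, of polymerase III, were members together with Bdp1, a subunit of the polymerase III factor TFIIIB. Polr3K had scaled values of 6.13, 6.45 and 5.09 at 18°C, 5.85 and 6.48 at 25°C, and 13.3, 14.8 and 10.7 at 29°C. Its difference of 1.01 was the same as that of Tcs1, which lies on the same transcript and has nearly identical values, so that the pair counts as 1 measurement. Polr2H had 11.9, 12.7 and 11.6 at 18°C, 13.2 and 15.9 at 25°C, and 21.1, 23.4 and 17.4 at 29°C, and Polr1D differed by 0.67 and Bdp1 by 0.64. In all 4 the 29°C library of ZT15 was the highest. Of 28 tested polymerase subunits, listed after the values had been seen, 3 are members. Of the other 25, 15 were higher and 0 lower at 29°C than at 18°C (14.2% and 16.2% of all genes), with a median of 0.44. Without that library 10 of them were higher. Polr2A, the largest subunit of polymerase II, was at 0.06 ± 0.15 (SE) (limma, adjusted p = 0.781).

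Chromatin proteins numbered 8 among the members, a group made up after the members were known. The list of histones and chromatin assembly, with 5 genes tested, held 0 members. It had 1 gene called higher and 0 lower at 29°C, against 14.2% and 16.2% of all genes. Ssrp and dre4 (Spt16) are the partners of the FACT complex, which moves histones ahead of polymerases, and both were members. Ssrp had scaled values of 5.58, 6.34 and 5.53 at 18°C, 7.60 and 6.02 at 25°C, and 9.84, 13.1 and 11.7 at 29°C, and dre4 had 6.69, 7.34 and 7.01 at 18°C, 6.88 and 7.60 at 25°C, and 11.4, 14.8 and 11.6 at 29°C. Their differences were 0.87 and 0.76. The histone chaperone Nap1 was more abundant, with 130.5, 153 and 164 at 18°C, 174 and 156 at 25°C, and 241, 253 and 291 at 29°C, and the nucleophosmin relative Nph differed by 0.71. The insulator protein CTCF differed by 0.65, Cfp1, which guides Set1 methyltransferase, by 0.63, Bin1 (Sap18) by 0.62 and the deacetylase HDAC11 by 0.63. CTCF and Bin1 were the least separated of the 8, since the lowest 29°C library was 0.085 above the highest cooler library in CTCF and 0.071 above it in Bin1.

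Transcription regulators were fewer. Myc, the driver of growth and ribosome production, had scaled values of 13.2, 16.8 and 14.1 at 18°C, 14.5 and 18.1 at 25°C, and 24.6, 28.5 and 26.2 at 29°C, a difference of 0.80. All its 29°C libraries were above 24, and its cooler libraries ran from 13.2 to 18.1. The co-activator mbf1 had 42.5, 40.2 and 37.3 at 18°C, 36.6 and 42.1 at 25°C, and 68.9, 69.8 and 67.3 at 29°C, almost without spread at 29°C. It starts within 20 kb of tra. The partner of the sugar sensor Mondo, bigmax, differed by 0.65.

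RNA processing and RNA-binding proteins made up 9 members. The sex determination gene tra, which steers female splicing, had scaled values of 5.71, 5.43 and 6.12 at 18°C, 6.05 and 6.34 at 25°C, and 14.0, 11.5 and 10.7 at 29°C. It differed by 0.94 and was the only member among 22 tested splicing factors, of which 7 were higher and 2 lower at 29°C against 14.2% and 16.2% of all genes. Under the 75th percentile and quantile scalings 12 of the 22 were higher and 1 lower. The exons of tra overlap those of l(3)73Ah on the other strand. The Y-box protein yps, which binds mRNA in storage particles, had 90.3, 106 and 105 at 18°C, 102 and 131 at 25°C, and 187, 189.8 and 218 at 29°C, a difference of 0.97, the largest in this group. Prp39, of the U1 particle, had 15.4, 18.5 and 19.8 at 18°C, 17.1 and 20.7 at 25°C, and 30.7, 29.2 and 32.0 at 29°C. Spx (SF3B4), of the U2 particle, differed by 0.71, Saf-B by 0.66, the cap-complex protein Ars2 by 0.69, the Integrator subunit omd by 0.65, the exonuclease Rexo5 by 0.69 and the ribonuclease rnh1 by 0.66.

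Immune genes were few. BomS3, a Bomanin peptide secreted into the blood on Toll signalling, was among the most abundant members, with scaled values of 947, 891 and 1048 at 18°C, 1048 and 1079.6 at 25°C, and 1806, 1800.5 and 1440.1 at 29°C. It differed by 0.80 and was 0.15 above 18°C at 25°C. BomS3 was not called higher at 29°C under quantile normalization, where 13 antimicrobial peptide genes were called with or without it. Of 22 tested antimicrobial peptide genes 13 were higher and 0 lower at 29°C, against 14.2% and 16.2% of all genes. But 6 were higher at 25°C already, against 2.03% of all genes. Medians were 0.81 at 29°C and 0.55 at 25°C. DptB was 2.82 above 18°C at 25°C and 4.67 at 29°C, and BomBc3 1.20 and 1.80. NimB3, of the Nimrod family, differed by 0.64 with 29°C libraries of 40.5, 33.5 and 28.7.

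The other 66 members had differences of 0.60 to 1.01, and no role is assigned to them here. CG10139 had scaled values of 9.46, 8.66 and 9.52 at 18°C, 9.71 and 11.5 at 25°C, and 18.6, 20.7 and 19.1 at 29°C. CG8112, whose synonym is ACAT, an enzyme of sterol esterification, had 30.7, 36.7 and 30.7 at 18°C, 38.4 and 26.8 at 25°C, and 77.9, 54.1 and 65.1 at 29°C. They differed by 1.00 and 0.97. CG13895 followed with a difference of 0.91. The noncoding lncRNA:CR31781 had 19.5, 19.8 and 18.3 at 18°C, 20.5 and 21.3 at 25°C, and 36.0, 34.7 and 37.3 at 29°C, and its 29°C libraries were the most clearly separated of the members together with those of tra, at 0.68 above the highest cooler library in both. Neighbours within 20 kb were Lk6 and CG6923 (0.71), Nph and CG15525 (0.61), Ars2 and l(2)k09848, f-cup (0.65) and omd, and CG15027 (0.81) and CG33178 (0.62).

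**Figure D5:**
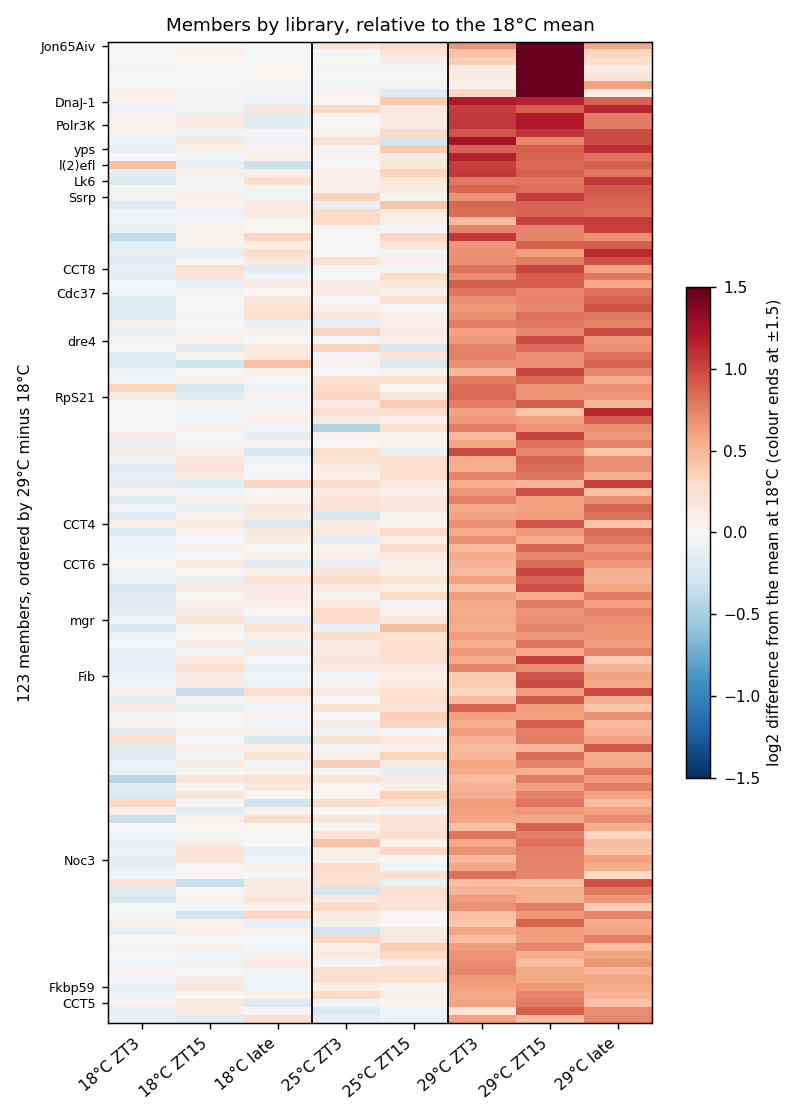
Level of each of the 123 members in each of the 8 libraries, as the log2 difference from its mean at 18°C, ordered by the difference at 29°C, with some genes named. The 18°C and 25°C columns are pale, and the 29°C columns are red for the 116 members below the top 7. Those 7 are dark at ZT15 only, and most of them are pale in the other 29°C columns.

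The rule used neither position nor gene structure. The members lay on arms 2L (18), 2R (25), 3L (25), 3R (32) and X (22), and the share on each arm was within 3 percentage points of that of the kept genes. Of the members 73.2% had 1 listed transcript, against 59.6% of the kept genes. On the same strand, exons overlapped another gene in 4.92% of members and 7.75% of kept genes. Beside the pairs given above, this holds for Cdc37 (with CG12020) and Myc (with lncRNA:CR44999), whose coverage may be mixed. Exons overlapped another gene on the other strand in 41.8% of 122 members and in 33.9% of kept genes, by BDGP6. Whether coverage was averaged by strand is not stated, and reads of such pairs cannot be told apart. Of the members named above, this concerns l(2)efl, Fkbp59, CCT5, Cdc37, CG10565, CG6937, Nopp140, Polr1D, Polr2H, Polr3K, Tcs1, Nap1, Nph, CTCF, Bin1, HDAC11, Myc, mbf1, bigmax, tra, Prp39, eIF2alpha, CG8112, f-cup, CG15525 and CG33178.

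Time of day is a comparison that the rule did not fix, although it limited the spread within a temperature. In a limma fit with temperature and time point, 0 of the 123 members and 0 of all 14799 transcripts passed an adjusted p of 0.05 for ZT15 against ZT3, late night against ZT3 or late night against ZT15. At an unadjusted p under 0.05, 11 members were higher and 2 lower at ZT15 than at ZT3, where 21.6% and 2.09% of all transcripts were. For late night against ZT3, 17 were higher and 7 lower, against 6.47% and 8.37%, and for late night against ZT15, 12 were higher and 9 lower, against 3.08% and 20.9%. The gene nearest to the threshold, named for its value, was CG6013, higher at late night than at ZT15 by 0.53 ± 0.09 (SE), with an adjusted p of 0.0564 from limma. The CCT subunits, listed after the fact, were all higher at ZT15 than at ZT3 (median 0.19) and lower at late night than at ZT15 (median -0.38). All genes leaned the same way, with 6525 of 8433 higher at ZT15 than at ZT3 (median 0.12) and 2212 higher at late night than at ZT15 (median -0.14). For CCT5 the latter difference was -0.35 ± 0.09 (SE), with an adjusted p of 0.0994 from limma.

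The rule sets the sign of the difference at each hour but not its size. Between libraries of the same time point the 116 had median differences of 0.71 at ZT3, 0.73 at ZT15 and 0.66 at late night. Among the 116 the highest 29°C library was ZT15 in 55, late night in 41 and ZT3 in 20. Over the 6731 kept genes it was ZT15 in 59.9%, late night in 23.6% and ZT3 in 16.5%. The nucleolar and polymerase members were highest at ZT15 in 7 of 10 and 4 of 4, against that share over all kept genes, and Ip259, CG4364, vito, Lk6, yps and Nap1 were highest at late night and DnaJ-1, l(2)efl, tra and RpS21 at ZT3.

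Markers of several head tissues moved with temperature in the same libraries. The summed scaled level of 18 photoreceptor markers was 15996 to 20907 at 18°C, 19524 to 21087 at 25°C and 25090.2 to 30397 at 29°C. Only 10 of these 18 had a higher mean level at 29°C than at 18°C, with a median difference of 0.09. The rise of the sum is thus not shared by all of them. Glia markers (6 of 7 listed) summed to 1722 to 1770.1, 1281 to 1382 and 862 to 995, and muscle markers (18 of 18) to 8604 to 10214, 5464 to 5619 and 3732 to 4764. Fat body markers (8 of 10) were highest at 25°C, at 44709 to 48885, against 14239.8 to 20677 at 18°C and 10516 to 17392 at 29°C. In whole heads, more cells of a type and more RNA per cell cannot be told apart, and the part of these shifts in the members' differences was not tested. No member is on the lists for neurons, photoreceptors, glia, fat body, muscle or hemocytes.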

How the data were processed

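PolyA+ RNA-seq libraries of fly heads from flies kept at 3 temperatures were compared. The deposited values are a signal, the average read coverage per base of each annotated transcript, made by the authors from reads mapped to the dm3 build. The submitters' processing notes name Bowtie2, TopHat and Cufflinks without roles. Read numbers are unknown, so no counting error or interval is given. A further 75 columns whose names match no sample of the labels were not used. Symbols were matched by locus tag or a single synonym for 11288 of 11500 listed genes, and positions come from BDGP6, not the files' build. No sequence was analysed here.

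The 8 columns were scaled to a sum of 1000000 and log2(scaled value + 1) taken. Tests used limma 3.58.1 in R 4.3.3 on transcripts whose scaled values averaged 1 or more, Benjamini-Hochberg adjustment over 14799 transcripts and a threshold of 0.05. Temperature was fitted alone, and time of day beside temperature. For lists, the transcript with the highest mean stood for a gene. Other steps used Python 3.11.15 with pandas 2.3.3 and matplotlib 3.10.9. On simulated data with 200 changed transcripts, 71, 97.5 and 99% of changes of 0.6, 1 and 1.5 were recovered for temperature. For time of day 60, 98 and 98.5% were. The simulated spread came from the fit with temperature and time point and was independent between transcripts. Temperature was fitted alone on the real values, so that its recovery there may be lower. The members and lists were chosen with earlier results of these data known, and the lists for CCT, prefoldin, FACT, snoRNP proteins, ribosome assembly and RNA polymerase subunits after their values had been seen. Named by rule were the 20 members with the largest differences, members on a list, up to 10 past the threshold in a time contrast, the 3 transcripts on either side of the 0.6 limit, and members sharing a family or lying within 20 kb. Other genes in the text, including those placed by role, were chosen after their values were seen. Alternatives were other pseudocounts, filters, scalings and rule thresholds, a variance trend, a replicate block and leaving out each library.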

Additional observations from a re-analysis of the deposited data

How the results depend on the processing

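The number of member genes, 123, depended on how the rule was set. It was 57 with a pseudocount of 5, of which 42 were shared, 201 with no filter on low values, 78 with a mean of at least 10, 241 and 12 with a difference of at least 0.5 and 1, and 67 and 225 with the 25°C limit at 0.15 and 0.4. It was 109 under the 75th percentile scaling and 89 under quantile normalization, of which 30 and 45 were shared, and 89 to 159 when 1 library was left out. The median difference of the members was 0.68, or 0.84 under the 75th percentile scaling, 0.55 with a pseudocount of 5, where 41 of the 123 were at least 0.6 higher, and 0.65 to 0.72 without 1 library. Among 546 alternative values of 39 named members, 506 moved by less than the spread between libraries, 40 moved more and 0 changed sign. The rule put each 29°C library above all cooler ones, so that leaving out a library or changing the pseudocount could not turn a sign. The spread was that of each gene, and in the 7 members high in 1 library it was wide, up to 4.45 at 29°C.

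Counts of calls over all transcripts were unstable. For 29°C against 18°C, 4325 transcripts were called, and 2316 to 4523 without 1 library, with 2316 without 18°C ZT3, 2688 without 18°C ZT15 and 2781 without 29°C ZT3. For 29°C against 25°C, 138 were called, 69 and 363 with pseudocounts of 0.1 and 5, 266 with no filter, 289 with a minimum of 5, 412 and 427 under the 75th percentile and quantile scalings and 336 with a variance trend. Without 1 library this count was 5 to 1087: 24, 21 and 48 without the 18°C libraries of ZT3, ZT15 and late night, 5 and 1087 without those of 25°C, and 9, 276 and 33 without those of 29°C. For 25°C against 18°C, 1214 were called, 594 with a pseudocount of 0.1, 784 with no filter and 657 under quantile normalization. This count was 1 to 2647 without 1 library: 5, 7 and 628 without those of 18°C, 1 and 2647 without those of 25°C, and 89 and 443 without the 29°C libraries of ZT3 and late night. The cause of these shifts was not tested. For late night against ZT15, 0 members were called, but 1 with a pseudocount of 5, 2 with a minimum of 5 and 1 with a variance trend.

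Taking the time point as a replicate block gave 6369 calls for 29°C against 18°C, 726 for 29°C against 25°C and 3639 for 25°C against 18°C. The libraries share time points across temperatures by label. Deviations of 18°C and 29°C libraries of the same time point had correlations of 0.096, 0.16 and 0.31. Each 18°C library correlated best with its own time point. The main temperature fit left this match out, and calls that changed under the block depend on that choice. Under the block all 8 CCT subunits were called higher at 29°C than at 18°C, CCT2 and CCT7 included. Chosen after seeing the data, the other scalings, the block and leaving out 29°C ZT15 gave 15 to 19 chaperones, 5 to 8 CCT subunits, 12 to 20 assembly factors and 13 to 23 polymerase subunits called higher at 29°C than at 18°C, members included.

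Depth is unknown in these values, and 62 of the 123 members had a mean scaled value under 10 at 18°C, where their coverage was thin. Promoters and proteins of the members were not analysed here.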
